A study of Mus musculus with 6 samples.

Results

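POU transcription factors and Pantr1, a long non-coding RNA transcribed beside Pou3f3, were followed in N2A mouse neuroblastoma cells in which Pou3f3 was targeted by RNA interference. The members were taken as the rows of the deposited array table whose only gene symbol was Pou3f1, Pou3f2, Pou3f3, Pou3f4, Pou2f1, Pou2f2, Pou4f1, Pou6f1 or Pantr1. Of these 9 genes, 8 had such a row, and no row carried Pou2f1 as its only symbol, so that the expression of Pou2f1 was not analysed here. Pou3f2 had 2 rows and the others 1 each, which gave 9 rows among 21789 rows with 1 symbol and 35556 rows in all. Where a gene had several rows, the row with the highest mean over the 6 arrays was taken as its main row.

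Control and knockdown cultures were compared, with 3 arrays in each group. Control cells carried a non-targeting vector and knockdown cells a vector with a short hairpin RNA (shRNA) against Pou3f3. All cells were of the same line, had received 1.5 ug of an shRNA plasmid by transient transfection and were harvested 2.5 days later. The plasmid used by the study drives the hairpin from a U6 promoter and also encodes a green fluorescent protein, and no source used here states the share of cells that took it up. Because whole cultures were measured, fewer cells expressing a gene and less RNA per cell cannot be told apart. The replicates are described as biological, without naming what was independent between them, so that p-values measure the spread between these cultures.

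POU proteins bind DNA through a POU-specific domain joined by a flexible linker to a POU homeodomain, and many of them recognise the octamer ATGCAAAT. The class III genes Pou3f1 (Oct6), Pou3f2 (Brn2), Pou3f3 (Brn1) and Pou3f4 (Brn4) act in neural progenitors and in young neurons, where Pou3f2 and Pou3f3 are known to stand in for each other in the developing cortex. Pou2f1 and Pou2f2 belong to the octamer proteins first studied at histone, small nuclear RNA and immunoglobulin promoters, Pou4f1 (Brn3a) is a factor of sensory neurons, and Pou6f1 (Brn5) is found in brain and other tissues. Pantr1, also called linc-Brn1a, is transcribed from the region upstream of Pou3f3.

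The study lists 4 hairpins against Pou3f3, and no source used here states which of them was on the arrays. They are shown because they define the perturbation. Each is the upper oligonucleotide as cloned, with the 17-base stem and its reverse complement in capitals and the loop and terminator in lower case. The sequences are those of the study's oligonucleotide list, and their place in the transcript was not determined here.
Pou3f3sh1941: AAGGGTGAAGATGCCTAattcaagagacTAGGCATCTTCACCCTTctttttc
Pou3f3sh2687: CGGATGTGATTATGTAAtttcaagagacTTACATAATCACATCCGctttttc
Pou3f3sh2765: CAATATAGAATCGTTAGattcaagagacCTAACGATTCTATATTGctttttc
Pou3f3sh3012: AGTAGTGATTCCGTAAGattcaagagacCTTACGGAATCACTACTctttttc

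All values below are log2 array values, which are brightness values of a row and are compared between arrays, not between genes. Differences are knockdown minus control, and a row was called at a limma adjusted p under 0.1 with a fold of at least 1.3, which is 0.38 on the log2 scale. The 6 arrays had medians between 7.90 and 8.01. Of the sympathetic neuroblast markers listed for this check, 9 were measured, with mean values from 9.71 to 13.76. The rows of 6 glial, 6 fibroblast and 5 leukocyte markers had mean values between 4.94 and 8.80. None of these 17 markers of other cells was called, and their 3 list medians were -0.11, -0.11 and -0.06. Among the neuroblast markers Dbh, the enzyme that makes noradrenaline, fell by 1.17, where 0.684% of all rows were called lower, and the other 8 were not called. Of the 9 markers 6 lay below 0 and 3 above, with a median of -0.18. Of all rows 57.5% lay below 0, but this share changed with level. In the classes above 9.51, which hold these 9 markers, it was 34.8% to 48.4%. Th, the first enzyme of the same pathway, was called lower with the replicate block (limma adjusted p = 0.0420, without it 0.133), where 0.757% of all rows were called lower. Gata3 and Chga differed by -0.33 and -0.35 (limma adjusted p = 0.0484 and 0.0628 without the block) and missed only the fold of 1.3. Without a fold limit 4.45% of all rows passed.

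No POU gene and not Pantr1 was called different between knockdown and control cells, and the class III genes had lower means in knockdown cells, by 4.28% for Pou3f1 to 15.4% for Pou3f2. The number called was 0 of 8 main rows, where 1.99% of all rows with 1 symbol were called (limma). At an unadjusted p under 0.05, 2 of the 8 rows differed, Pou3f2 and Pou3f4, both lower, against 19.9% of all rows, or 10.2% with a lower value. Without a limit on the fold, 0 of the 8 rows and 4.45% of all rows had a limma adjusted p under 0.1. The differences of the 8 main rows ran from -0.24 for Pou3f2 to 0.10 for Pou6f1. All 4 class III genes were lower in knockdown cells in each of the 3 pairs of arrays that carry the same replicate number, which was so for 29% of all rows.

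Pou3f3, the target, had log2 array values of 8.37, 8.30 and 8.47 in control replicates 1 to 3 and of 8.20, 8.09 and 8.35 in the knockdown replicates. Replicate 3 was the highest array in each group, and the groups overlapped, since knockdown replicate 3 lay above control replicate 2. The means were 8.38 ± 0.09 and 8.21 ± 0.13 (SD, n = 3), a difference of -0.16 ± 0.08 (SE; limma adjusted p = 0.303). The interval of the difference ran from -0.35 to 0.02 (95% confidence), so that a level up to 21.7% lower in knockdown cells lay within it. By qRT-PCR, another measure and at a later stated time, the study reported a reduction of Pou3f3 larger than this. Deviations from the group means went together for arrays of the same number, but clearly so only for replicate 1. Such arrays were used as a block in a further fit. In that fit the limma adjusted p of Pou3f3 was 0.0880 and the interval ran from -0.29 to -0.03, and the difference stayed below the fold of 1.3.

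Pou3f2, which shares much of its role in cortical neurons with Pou3f3, had log2 array values of 7.62, 7.65 and 7.72 in control cells and of 7.37, 7.39 and 7.51 in knockdown cells on its main row. All knockdown arrays lay below all control arrays. Its difference was -0.24 ± 0.07 (SE), a level 15.4% lower, with an interval from -0.40 to -0.09 that reached 24.0% lower (limma adjusted p = 0.120). With the replicate block the limma adjusted p was 0.0264, still without reaching the fold of 1.3. The second row of Pou3f2 was much dimmer, at 3.78, 3.96 and 4.03 in control cells and 3.71, 3.78 and 3.79 in knockdown cells. The groups overlapped on this row. Its difference of -0.16 had the same direction (limma adjusted p = 0.286, or 0.106 with the replicate block).

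Pou3f4, a class III gene that is needed in the inner ear and also acts in the striatum, had log2 array values of 7.34, 7.41 and 7.43 in control cells and of 7.14, 7.02 and 7.30 in knockdown cells. The groups were apart, but the knockdown arrays spread more widely (SD 0.14) than the control arrays (SD 0.04). The difference was -0.24 ± 0.08 (SE), a level 15.3% lower, with an interval from -0.42 to -0.06 that reached 25.3% lower (limma adjusted p = 0.163). The limma adjusted p with the replicate block was 0.0440, and the pair of replicate 2 differed most, by -0.38, against -0.21 and -0.13 in the others.

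Pou3f1, known from the Schwann cell lineage and from upper-layer cortical neurons, had log2 array values of 8.83, 8.82 and 8.86 in control cells and of 8.80, 8.71 and 8.81 in knockdown cells. The groups were apart by a narrow margin. The difference was -0.06 ± 0.06 (SE), with an interval from -0.21 to 0.08 (limma adjusted p = 0.590, or 0.479 with the replicate block). It was -0.03 without knockdown replicate 2 and -0.01 under median centring of the arrays.

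**Figure D1:**
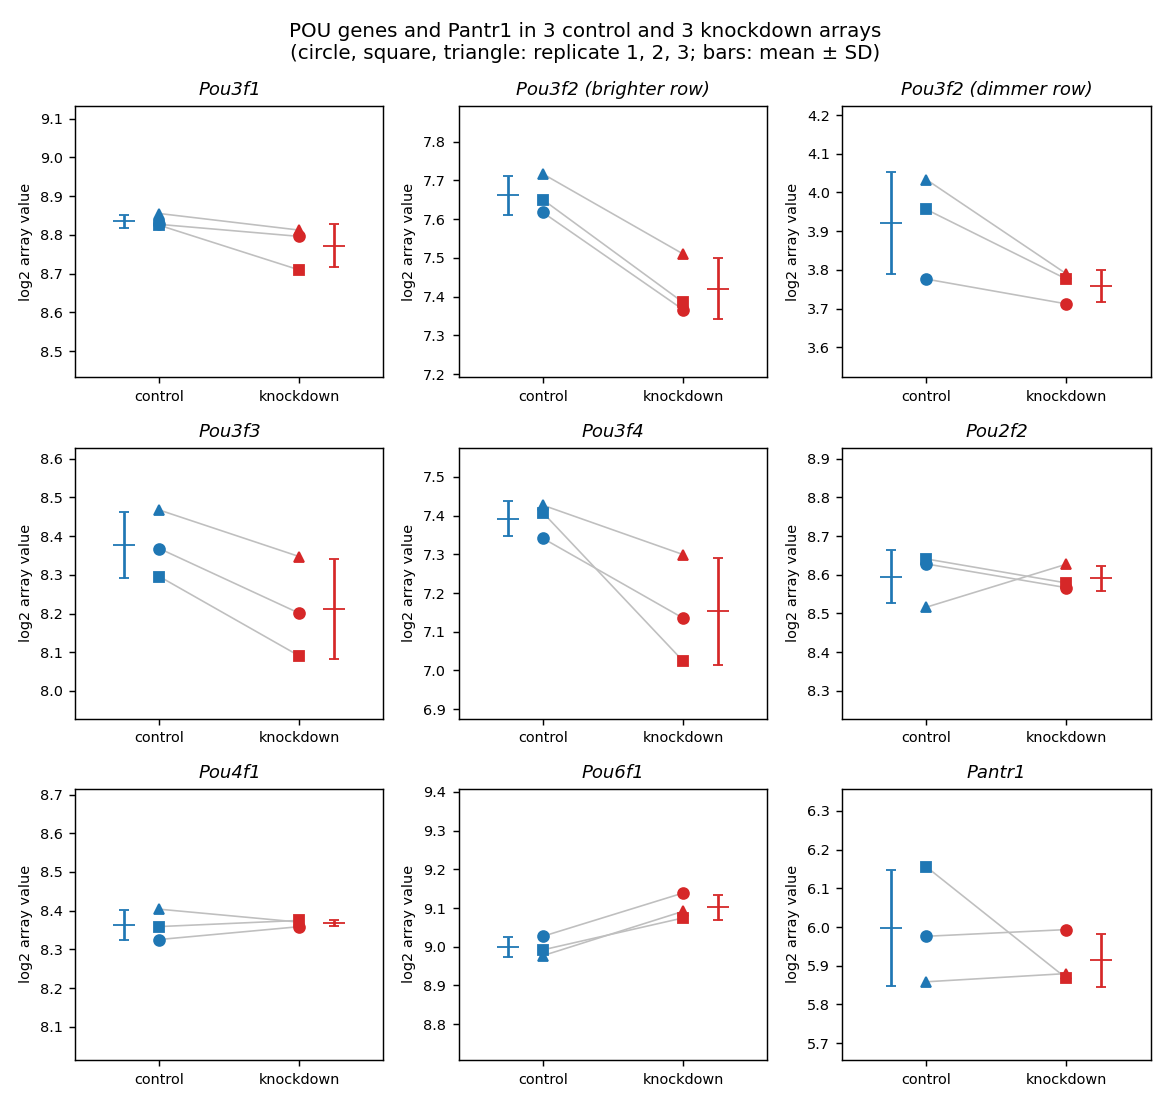
Log2 array values (vertical axes, 0.7 log2 units in each panel) of the 9 rows of POU genes and Pantr1 in control (blue) and knockdown (red) cells. Grey lines join arrays of the same replicate number, and bars beside the points are means ± SD (n = 3). The lines of Pou3f1, Pou3f2, Pou3f3 and Pou3f4 all slope downwards, those of Pou6f1 all slope upwards, and those of Pou2f2, Pou4f1 and Pantr1 cross or lie flat.

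The POU genes of other classes showed no common direction. Pou2f2, the octamer factor best known from B cells, had log2 array values of 8.63, 8.64 and 8.52 in control cells and of 8.57, 8.58 and 8.63 in knockdown cells. Those groups overlapped, with a difference of -0.00411 and an interval from -0.15 to 0.14 (limma adjusted p = 0.978). Pou4f1, a survival and identity factor of sensory neurons, had values of 8.33, 8.36 and 8.40 in control cells and of 8.36, 8.37 and 8.37 in knockdown cells. It was the member with the narrowest spread over the 6 arrays, at 0.08 between the lowest and the highest. Its difference was 0.01, with an interval from -0.13 to 0.14 (limma adjusted p = 0.971).

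Pou6f1 was the member with the highest difference above 0. Its log2 array values were 9.03, 8.99 and 8.98 in control cells and 9.14, 9.07 and 9.09 in knockdown cells. All knockdown arrays lay above all control arrays, and the difference was 0.10 ± 0.06 (SE; interval -0.04 to 0.24; limma adjusted p = 0.370, or 0.244 with the replicate block).

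Pantr1, the non-coding neighbour, had log2 array values of 5.98, 6.16 and 5.86 in control cells and of 5.99, 5.87 and 5.88 in knockdown cells. Only the pair of replicate 2 was lower in knockdown cells, by 0.29, and the pairs of replicates 1 and 3 differed by 0.02 each. The difference of the means was -0.08 ± 0.09 (SE; limma adjusted p = 0.604), and its interval from -0.28 to 0.11 held levels from 17.5% lower to 7.98% higher. The difference was -0.00378 without control replicate 2, -0.15 without control replicate 3, and -0.03 and -0.04 after median centring and cyclic loess.

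**Figure D2:**
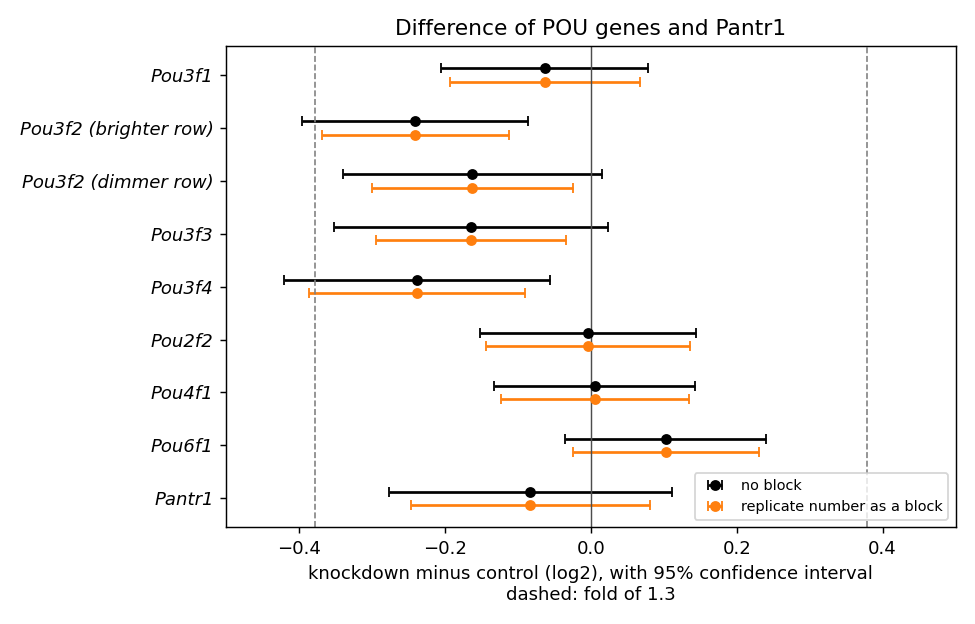
Difference between knockdown and control (log2, horizontal axis) of the 9 rows of POU genes and Pantr1, with 95% confidence intervals from limma without a block (black) and with a block on the replicate number (orange). Dashed lines mark a fold of 1.3. The intervals of the main row of Pou3f2 and of Pou3f4 lie below 0 in both fits, that of Pou3f3 lies below 0 with the block alone, and every estimate lies between the dashed lines.

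Groups did not overlap for 4 of the 8 main rows, namely Pou3f1, Pou3f2 and Pou3f4, which were lower, and Pou6f1, which was higher. Among all rows with 1 symbol the groups were apart in 26%, with knockdown lower in 15.1% and higher in 10.9%. With the replicate block and no limit on the fold, 3 of the 8 main rows had a limma adjusted p under 0.1, which were Pou3f2, Pou3f3 and Pou3f4, all lower. In that fit 23% of all rows passed, and 10.7% passed with a lower value.

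Rows of a level like that of Pou3f2, Pou3f3 and Pou3f4 tended to lie lower in knockdown cells, and those at the level of Pou3f1 did not. When all rows with 1 symbol were split into 10 classes by mean value, the class from 7.23 to 7.82, which holds the main row of Pou3f2 and Pou3f4, had a median difference of -0.09, and 84.1% of its rows lay below 0. The groups were apart with knockdown lower in 26.3% of the rows of this class. In this class 4.31% of the rows had a difference as low as that of Pou3f2 or lower, and 4.59% as low as that of Pou3f4. Pou3f3 belonged to the next class, whose median was -0.08, and 20.3% of those rows were at or below its difference. Pou3f1 and Pou6f1 fell in the class from 8.60 to 9.51 with a median of 0.04, where 29.5% of the rows were at or below Pou3f1. The part of this shift with level in the differences of the POU genes was not tested. The mean values of Pou3f2, Pou3f3 and Pou3f4 over the 6 arrays were 7.54, 8.29 and 7.27. They lay in the range of the glial, fibroblast and leukocyte marker rows, 4.94 to 8.80, but such values do not rank genes against each other. The study states that N2A cells express Pou3f3. Whether these POU rows were above background was not analysed here.

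**Figure D3:**
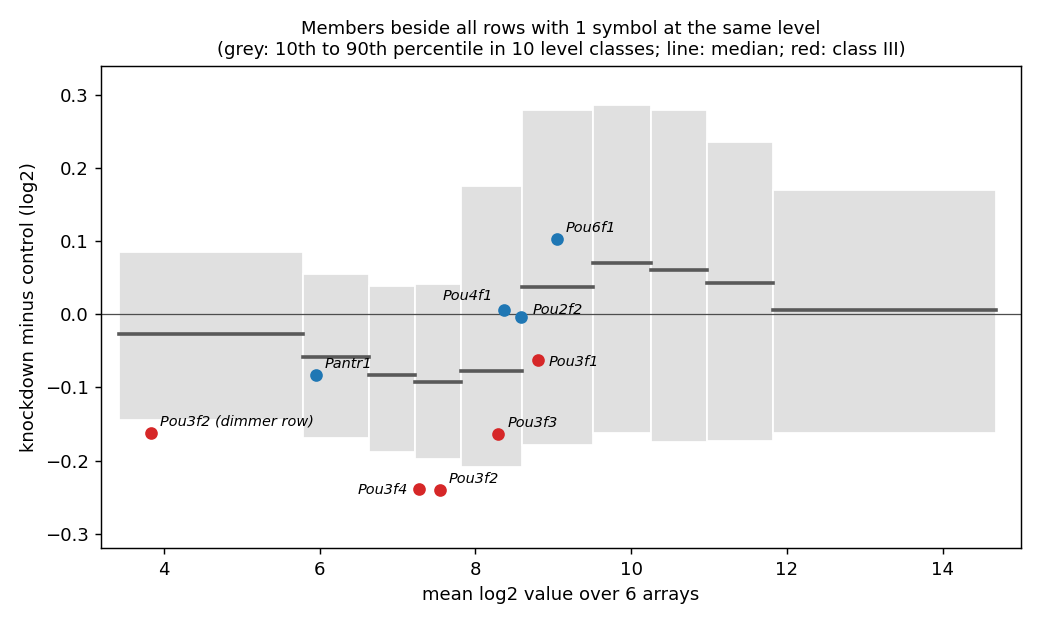
Difference between knockdown and control (log2, vertical axis) against the mean log2 value over 6 arrays for the rows of POU genes and Pantr1 (red for class III, blue for the rest). Grey boxes span the 10th to 90th percentile of all rows with 1 symbol in 10 level classes, with the median as a line. Pou3f2 and Pou3f4 lie below the box of their class, whose lower edge is at -0.20, and Pou3f3 lies within its box.

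Whether other members differed by more or less than the target was examined for 4 genes. The measure was the gap between the log2 values of a gene and Pou3f3 in the same array. These 4 genes are the members whose groups did not overlap in the same values, so that the intervals below are descriptive. The gap of Pou3f2 changed by -0.08 between control and knockdown (interval -0.23 to 0.08; exact permutation p = 0.3, two-sided) and that of Pou3f4 by -0.07 (interval -0.21 to 0.06; exact permutation p = 0.1). The gap of Pou3f1 changed by 0.10 (interval -0.07 to 0.28; exact permutation p = 0.2). For Pou6f1 the gap widened by 0.27 (interval 0.01 to 0.53; exact permutation p = 0.1). Adjusted over the 4 comparisons, these exact permutation p-values were between 0.2 and 0.3. With 3 arrays against 3, the smallest exact p is 0.1, so that none of them could pass 0.05.

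The profiles of the class III genes over the 6 arrays were compared with those of all 19937 other symbols by the root mean square distance between log2 values, after each row had been centred on its own mean. This is a description, and with so many rows and 6 arrays close profiles are to be found for any gene. The rows nearest to Pou3f3 were those of Gimap8, Krtap6-5 and Plk5, at distances of 0.0170 to 0.0192, where the median row lay at 0.14. Nearest to Pou3f2 were Olfr311, Galr3 and Dcc, the netrin receptor gene, at 0.00948 to 0.0164, and nearest to Pou3f4 were Slc1a7, Foxl2 and Cds1, at 0.0162 to 0.0228. Lmod3, Pgc and Ppp3r2 were nearest to Pantr1, at 0.0208 to 0.0234. The related genes were further off, with Pou3f4 at rank 221 from Pou3f2 (distance 0.05) and at rank 587 from Pou3f3 (distance 0.06), and Pou3f3 at rank 893 from Pou3f2 (distance 0.07). Seen from Pou3f1, the others stood at ranks 6459 (Pou3f3), 9634 (Pou3f2) and 10503 (Pou3f4), and Pou4f1 was nearer, at rank 1782. Pantr1 stood at rank 12555 from Pou3f3 (distance 0.16). The 12 nearest rows have differences close to those of the members by this choice, and none had a limma adjusted p under 0.1.

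The promoters of Pou3f2, Pou3f3 and Pou3f4 are shown because these genes lay lower together. A window of 250 bases before to 50 after the start of the gene was found in RefSeq (GRCm38.p6) for 7 of the 9 members and not for Pou3f1 and Pantr1. In the sequences below, the letters CCAAT and their reverse complement ATTGG, the element bound by the factor NF-Y, are in capitals. Each is written 5′ to 3′ on the strand of the gene. Pou3f2 lies at chr4:22488317-22488616 (minus strand), Pou3f3 at chr1:42695518-42695817 (plus strand) and Pou3f4 at chrX:110814129-110814428 (plus strand).
Pou3f2: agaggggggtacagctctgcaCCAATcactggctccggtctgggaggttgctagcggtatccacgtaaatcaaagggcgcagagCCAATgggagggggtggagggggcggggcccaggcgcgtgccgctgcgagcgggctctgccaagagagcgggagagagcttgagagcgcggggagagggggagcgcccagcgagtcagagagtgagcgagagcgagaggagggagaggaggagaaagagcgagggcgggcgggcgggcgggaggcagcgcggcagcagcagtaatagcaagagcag
Pou3f3: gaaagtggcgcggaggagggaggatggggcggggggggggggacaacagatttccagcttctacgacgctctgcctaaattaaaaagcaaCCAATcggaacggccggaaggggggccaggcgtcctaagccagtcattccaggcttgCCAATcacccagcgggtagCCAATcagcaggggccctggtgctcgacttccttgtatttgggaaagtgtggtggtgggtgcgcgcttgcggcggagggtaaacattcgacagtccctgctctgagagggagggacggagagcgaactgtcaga
Pou3f4: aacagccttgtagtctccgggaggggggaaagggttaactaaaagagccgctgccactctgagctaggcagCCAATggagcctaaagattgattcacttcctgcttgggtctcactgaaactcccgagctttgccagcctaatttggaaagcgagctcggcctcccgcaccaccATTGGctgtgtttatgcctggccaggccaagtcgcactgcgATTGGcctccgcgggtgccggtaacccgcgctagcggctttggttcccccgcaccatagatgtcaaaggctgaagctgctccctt

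These letters were searched after the promoters had been read, on both strands, where the motif does not overlap itself. Pou3f2 had 2 matches and Pou3f3 and Pou3f4 had 3 each. Among all 32851 RefSeq windows of the same length, 37.4% held at least 1 match, 11.7% at least 2 and 3.37% at least 3. The other 6 windows of members held none, and belong to Pou2f1, whose expression was not analysed, Pou2f2, Pou4f1 and Pou6f1. The genes shown were picked by their differences and the letters from their windows, so that this contrast is only a description. A link between these letters and the differences was not tested. The octamer ATGCAAAT was in none of the 9 windows of the members on either strand, and in 1.74% of all windows. The windows of Pou3f2, Pou3f3 and Pou3f4 had a GC content of 67.7%, 60.3% and 57.7%, against a median of 52.7% for all windows.

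Further POU genes showed no call either, where 1.99% of all rows with 1 symbol were called. Measured here were 4, namely Pou2f3, Pou4f3, Pou5f1 and Pou5f2, with differences of -0.05, 0.04, -0.20 and -0.06 (limma adjusted p from 0.257 to 0.778). Pou5f1 (Oct4), the pluripotency factor, had log2 array values of 6.72, 6.90 and 6.71 in control cells and of 6.50, 6.50 and 6.73 in knockdown cells, which overlapped.

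Genes reported in the literature as targets of class III POU proteins were measured in 15 of 16 cases. Of these, 2 fell, none rose and 13 were not called, and 11 lay below 0, where 57.5% of all rows with 1 symbol did. The list was chosen with earlier results of these data known, so that these counts are only a description. The list median was -0.07, against -0.03 over all rows, and 0.684% of all rows were called lower. In the level class that holds the median level of the list, 8.39, the median difference was -0.08. In that class 69.9% of the rows lay below 0. The genes that fell were Mitf, the master regulator of pigment cells, on which POU3F2 has been described to act in melanoma, and Chrna3, which encodes the nicotinic receptor subunit alpha3 and whose promoter responds to Pou3f1 in reporter assays.

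Mitf had log2 array values of 9.70, 9.84 and 9.68 in control cells and of 9.29, 9.33 and 9.25 in knockdown cells. The groups were apart, and Mitf fell by 0.45 ± 0.07 (SE; limma adjusted p = 0.0192), a level 26.9% lower. A second row of Mitf was dim and did not share the fall, with 4.53 ± 0.14 in control and 4.62 ± 0.06 in knockdown cells (SD, n = 3). Chrna3 had values of 13.32, 13.45 and 13.34 in control cells and of 12.90, 12.98 and 12.92 in knockdown cells. It fell by 0.44 ± 0.07 (SE; limma adjusted p = 0.0192), a level 26.1% lower. When all 35556 rows were tested, including those with several symbols or none listed, neither Mitf nor Chrna3 was called (limma adjusted p = 0.118 and 0.111). The largest difference among the rest was that of Nes, a gene of neural progenitors whose enhancer binds class III POU factors, at 0.29 (limma adjusted p = 0.337, or 0.0455 with the replicate block).

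Among 5 measured partners of class III POU proteins, none was called without the block, where 1.99% of all rows were. Sox11, a neuronal SOX factor, had log2 array values of 9.86, 9.49 and 9.59 in control cells and of 10.29, 9.97 and 9.91 in knockdown cells. Its groups were apart with a difference of 0.41 ± 0.12 (SE; limma adjusted p = 0.127). With the replicate block Sox11 was called higher (limma adjusted p = 0.00446), as were 1.74% of all rows, and without control replicate 1 it was called too (limma adjusted p = 0.0550). Sox10 and Sox4 differed by -0.21 and 0.16, with limma adjusted p-values of 0.172 and 0.223 (0.0440 and 0.0927 with the replicate block), below the fold of 1.3. The list median was -0.02.

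The genes that work with the octamer factors and with Pou4f1 were not called in either direction, where 1.99% of all rows were called. Of 7 coactivators of Pou2f1 and Pou2f2 and subunits of the complex at small nuclear RNA promoters, 6 lay above 0 with a median of 0.12, led by Snapc2 at 0.22 and Npat, a histone gene coactivator, at 0.13. Pou2af1, the B cell coactivator, differed by -0.20. Of 6 measured partners and targets of Pou4f1, 5 lay below 0 with a median of -0.09, and Snap25, a protein of synaptic vesicle fusion, differed most, by -0.19, followed by Runx1 at -0.10 and Ina at -0.09. Of all rows with 1 symbol, 57.5% lay below 0. In the level classes that hold the median levels of these lists, 9.88 and 11.03, the shares below 0 were 35.7% and 38.5%. The lowest limma adjusted p in these lists was 0.271 and 0.143.

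**Figure D4:**
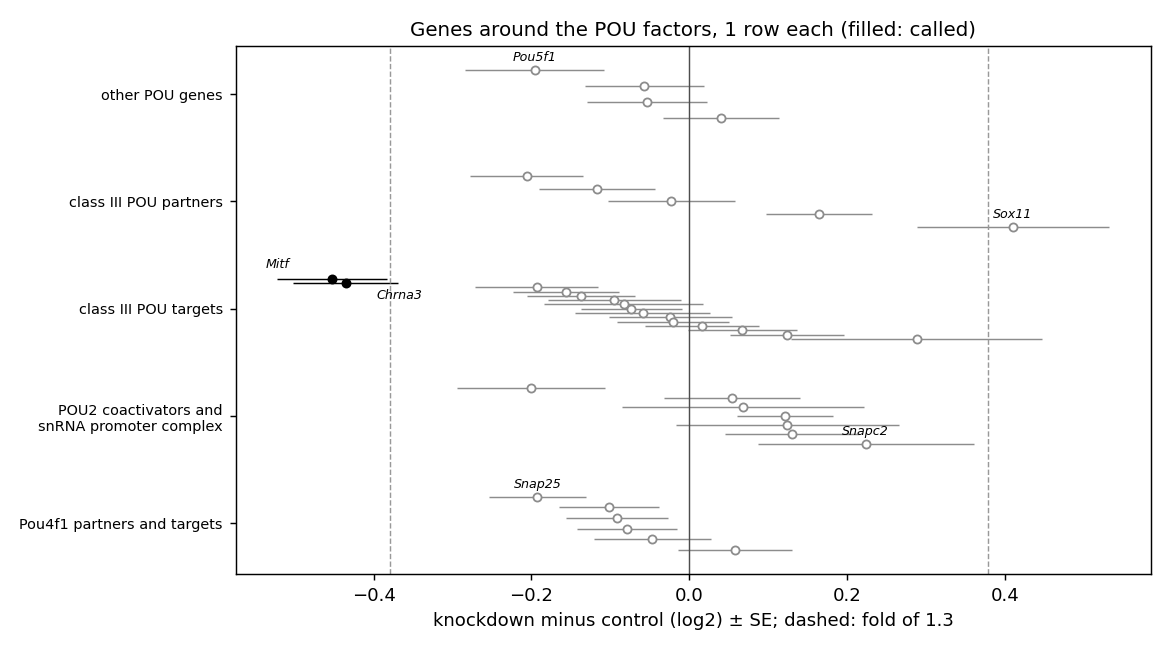
Difference between knockdown and control (log2, horizontal axis) ± SE of the genes around the POU factors, by list, with 1 row for each gene. Filled points were called, and dashed lines mark a fold of 1.3. Mitf and Chrna3, at -0.45 and -0.44, are the filled points, and Sox11, at 0.41, lies beyond the fold limit without being called.

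The genes nearest to Pou3f3 in RefSeq order, among those with a row of 1 symbol, did not follow a common direction. The study places the non-coding Dali, AK011913 and linc-Brn1b downstream of Pou3f3, and none of them is among these genes. Before Pou3f3 and beyond Pantr1 came Tmem182 and Mfsd9, which differed by -0.31 and -0.12 (limma adjusted p = 0.126 and 0.426). The control values of Tmem182, a muscle membrane protein gene, were 7.65, 7.41 and 7.38 and the knockdown values 7.17, 7.07 and 7.28, so that the groups were apart. After Pou3f3 came Mrps9, Gpr45 and Tgfbrap1, at 0.24, -0.03 and 0.00 (limma adjusted p from 0.105 to 0.978). With the replicate block Tmem182 and Mrps9 had limma adjusted p-values of 0.0298 and 0.0365, and neither reached the fold of 1.3.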

How the data were processed

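Total RNA of 3 control and 3 knockdown cultures (200 ng each) was hybridised to Affymetrix Mouse Gene ST arrays. The authors corrected the background by RMA, quantile normalised the arrays and summarised probes by gene, and the deposited values are log2 intensities. The submitters' processing notes name RMA and limma and give no versions. Quantile normalisation hides a change shared by most genes. Whether a row was above background was not analysed here. The precision is limited by the number of arrays.

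Gene symbols came from the platform's annotation. Of 35556 rows, 21789 had 1 symbol, 1621 had several and 12146 were not listed. Gene order and promoters came from RefSeq (GRCm38.p6). No source used here states the array's genome build.

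In R 4.3.3, limma 3.58.1 (lmFit and eBayes) was run on all rows with 1 symbol, with Benjamini-Hochberg adjustment over all of them. The study's adjusted p and fold thresholds were kept. Its variance filter drops members before they are tested and was used as an alternative, over all rows and over rows with 1 symbol, since the methods do not say which rows it covered. The fit was checked on simulated arrays. Deviations from the group means correlated at 0.64, 0.31 and 0.29 between arrays of the same number, which were taken as pairs. Arrays of different numbers correlated between -0.48 and 0.25. Control replicate 2 and knockdown replicate 3 correlated at 0.25, and control replicate 3 and knockdown replicate 2 at 0.22. Only replicate 1 was thus clearly set apart, and the sample titles name no pairs. The block was an alternative, as the study used none. Named were all members, 4 further POU genes, and the 3 genes of each list with the largest difference and any called. Also named were the 3 nearest profiles and, on each side of Pou3f3, the 3 nearest RefSeq genes with a row of 1 symbol. The members and lists were chosen with earlier results of these data known.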

Additional observations from a re-analysis of the deposited data

How the results depend on the processing

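The number of POU genes and Pantr1 called stayed at 0 under every alternative except 1 chosen after seeing the data, the replicate block without a fold limit, where it was 3. The variance filter over all rows tested 3 of the 8 main rows, the same filter on rows with 1 symbol 4, and leaving out the dimmest rows 7. The difference of Pou3f3 was below 0 in all of these alternatives and ran from -0.23 without knockdown replicate 3 to -0.10 without knockdown replicate 2. It was -0.11 with each array centred on its median and -0.12 after cyclic loess, and its limma adjusted p without the block ran from 0.184 to 0.634. Pou3f2 and Pou3f4 were below 0 in all 14 other settings, from -0.29 to -0.17 and from -0.31 to -0.17. Pou3f2 had a limma adjusted p of 0.0979 with a trended, robust prior. Pou2f2 lay on either side of 0, and Pou4f1 was below 0 in 1 of 12 settings. Pou6f1 stayed above 0, from 0.08 to 0.15, and Pou3f1 and Pantr1 below 0, from -0.08 to -0.01 and from -0.15 to -0.00378. Mitf and Chrna3 were called without each of the 6 arrays in turn and with the variance filter on rows with 1 symbol (limma adjusted p = 0.0129 and 0.0174), and lost with that filter over all rows (0.264 and 0.278). Sox11 was called with the variance filter on rows with 1 symbol (limma adjusted p = 0.0384), with median centring (0.0748), without control replicate 1 (0.0550) and with the replicate block.

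Over all rows with 1 symbol 433 were called, and 542 with the variance filter on these rows, 12 with that filter over all rows, 28 of all rows without a filter, 969 without a fold limit and 5005 with the replicate block and no fold limit. With the replicate block alone the count was 544. Without 1 array the counts ran from 147 to 611, with 161 without control replicate 2, 219 without control replicate 3 and 147 without knockdown replicate 2. Calls that were higher made up 65.6%, or 82.4% under median centring and 60.5% after cyclic loess. Lower calls were more numerous with the variance filter over all rows (10 of 12), with all rows and no filter (18 of 28), without control replicate 2 (83 of 161) and without knockdown replicate 2 (80 of 147). The cause was not tested.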
